A study of Homo sapiens with 6 samples.

Results

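The matrix of this tumor core and tumor margin study held 259 loci that StringTie assembled from the reads and that carried no gene identifier of the annotation, out of 60930 entries in all. They were taken by one rule, an identifier that begins with MSTRG, the prefix StringTie gives to loci of its own assembly. The rule itself uses no measured value, but it was chosen with earlier results of these data known. Human MDA-MB-231 cells, an established line of triple-negative breast cancer and wild type in genotype, were grown with Matrigel in the mammary fat pad of female NSG mice 6 to 8 weeks old, and tissue of the tumor core (TC, 3 samples) and of the tumor margin (TM, 3 samples) was sequenced. The labels name no treatment for either group. NSG mice lack T, B and NK cells but keep myeloid and stromal cells. Values are TPM (transcripts scaled to a common total), a length-corrected measure of abundance within a sample, which keeps no sequencing depth. The labels do not say whether a core and a margin sample came from the same tumor, and 1 cell line was used.

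Reference-guided assembly joins overlapping reads into transcripts and compares them with the known genes. Transcripts that overlap no known gene are kept as loci of their own. Such loci can be unlisted long non-coding RNAs, ends of known genes that extend past their annotated border, transcribed repeats, or copies of structural RNAs. The deposited matrix pairs these identifiers with no position, strand or sequence, so none of these classes is assigned here and no sequence is shown.

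The cell line was recognizable in all 6 samples, with VIM between 3797 and 5283 TPM and CD44 between 197 and 267 TPM, while ESR1, PGR and CDH1 did not exceed 0.36 TPM. The margin samples differed in markers of host tissue. The 14 skeletal muscle markers summed to between 4.25 and 8.26 TPM in TC, to 187 and 503 TPM in TM replicates 1 and 2, and to 3.15 TPM in TM replicate 3, where 4 of the 14 were at 0. The 10 fibroblast markers summed to between 83.7 and 241 TPM in TC, to 499.6 and 1022 TPM in TM replicates 1 and 2, and to 107 TPM in TM replicate 3. The collagens COL1A1, COL1A2 and COL3A1 held most of each sum. FBN1 was at 20.5, 23.3 and 18.8 TPM in TC and at 27.3 and 22.9 TPM in TM replicates 1 and 2. None of the rest exceeded 4.82 TPM, and LUM was at 0 in TM replicates 1 and 2 but at 0.38, 0.27 and 0 TPM in TC. Of the 7 macrophage markers, C1QA, C1QB and C1QC were at 0 in all 6 samples, and CD14 and MRC1 stayed under 1 TPM. CD68 ranged from 84.8 to 94.2 TPM without order by zone, and CSF1R was at 1.99 to 3 TPM in TC, at 4.07 and 9.12 TPM in TM replicates 1 and 2 and at 3.10 TPM in TM replicate 3. The study's methods describe no step that separates mouse from human reads.

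Most assembled loci were detected in both zones, at low levels. Of the 259 loci, 214, 208 and 207 were above 0 TPM in the core samples and 203 and 209 in margin samples 1 and 2. At 1 TPM or more there were 168, 151 and 149 loci in the core and 175 and 176 in these margin samples, so that the groups did not overlap (p = 0.2, two-sided exact permutation test, and no smaller p is possible with 3 samples against 2). The same count over annotated genes was not made, so this order is not read as a trait of the loci. Of all entries tested for zone differences below, 71.4% were lower in TC, against 58.9% of the tested loci. Above 0 in each of these 5 samples were 163 loci, 12 were at 0 in every sample, and 22 were above 0 in 1 of the 5 samples. By comparison, 34.7% to 37.7% of the annotated genes were above 0 in these 5 samples, against 78.4% to 82.6% of the assembled loci. The loci were assembled from reads, whereas annotated genes are listed with or without reads. A higher share of the loci was thus fixed in advance. The median over all 259 loci was 1.63, 1.30 and 1.39 TPM in TC and 1.92 and 1.86 TPM in TM. The mean over the 5 samples was under 1 TPM but above 0 in 48 loci, from 1 to under 10 TPM in 181, from 10 to under 100 TPM in 16 and at least 100 TPM in 2. The highest locus seen in a single sample only was MSTRG.16656, at 20.05 TPM in TM replicate 1 and 0 in the other 5 samples.

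**Figure D1:**
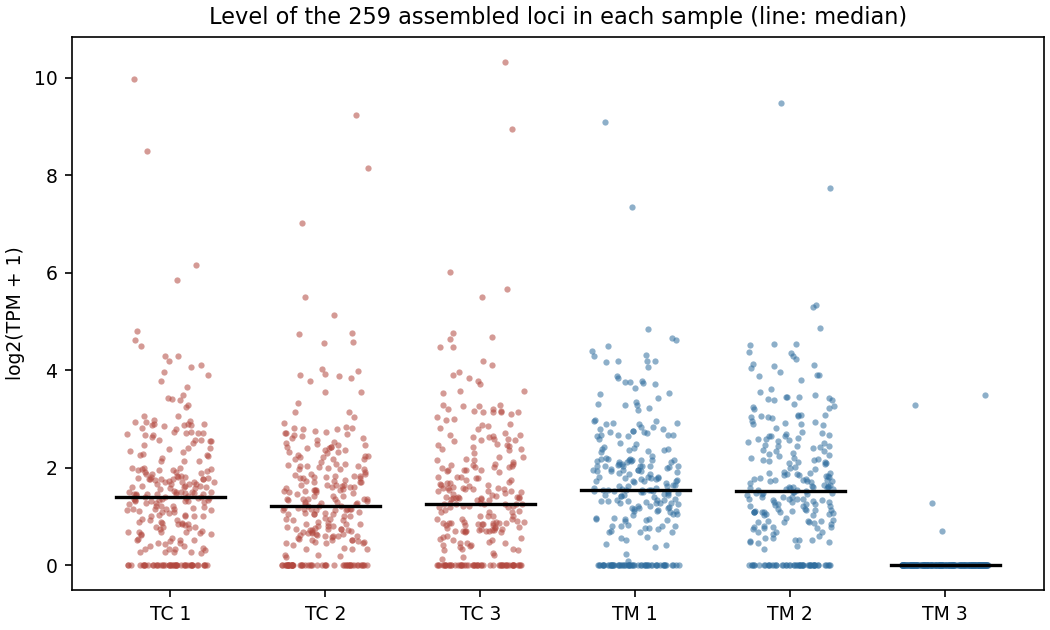
Level of each of the 259 assembled loci, as log2(TPM + 1), in the 3 core samples (TC, red) and the 3 margin samples (TM, blue). Each point is a locus and each black line is the median over the 259 loci, which lies at 0 in TM replicate 3, where 4 loci are above 0.

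TM replicate 3 stood apart. The assembled loci summed to 21.1 TPM there, and only 4 of the 259 loci were above 0. Zeros in this sample fell on these entries far more often than on annotated genes. Of the 87 loci at 1 TPM or more in each of the other 5 samples, 86 (98.9%) were at 0 in TM replicate 3. Of the 12160 annotated genes at 1 TPM or more in the other 5 samples, 50 (0.411%) were at 0 in TM replicate 3. For each of the other samples the same count was 5 or 6 annotated genes (0.0410% to 0.0499%) and 1 to 4 assembled loci. The deposited column of TM replicate 3 also summed to 5619 TPM less than 1000000, and the other 5 columns summed to 1000000. The cause was not tested. A value of 0 in TM replicate 3 cannot be read as absence of RNA. TM replicates 1 and 2 alone therefore stand for the margin in the main comparisons that follow. These are the margin samples with the high muscle and fibroblast marker sums.

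**Figure D2:**
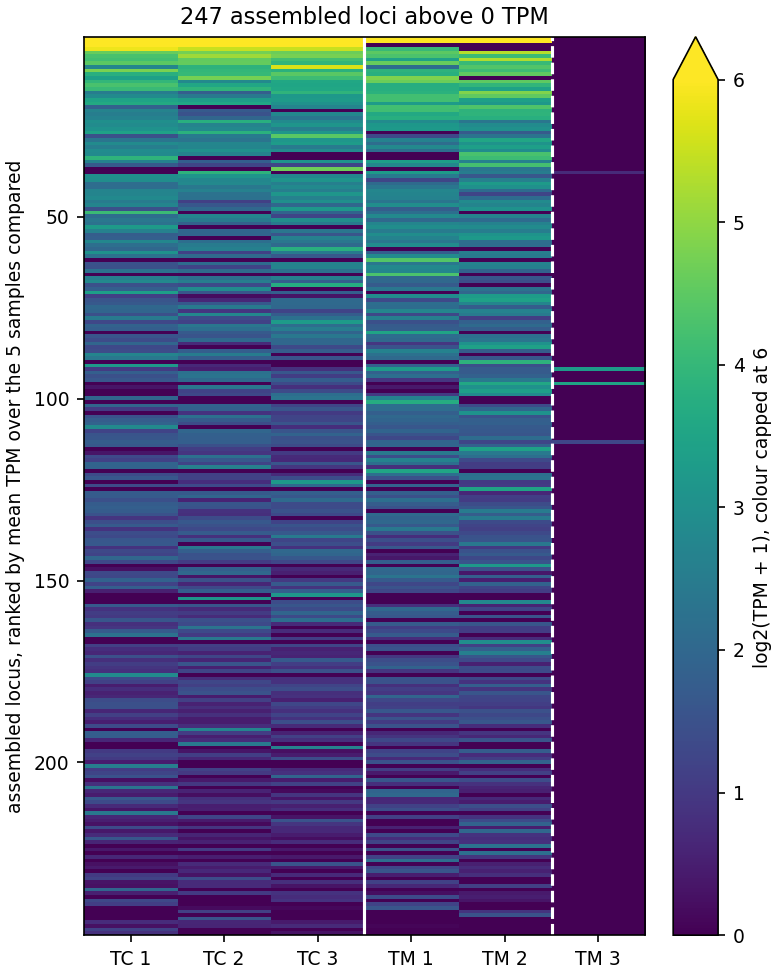
Heat map of the 247 assembled loci above 0 TPM, 1 row per locus, ranked from the highest mean at the top, with 1 column per sample and colour for log2(TPM + 1), capped at 6. TM replicate 3, right of the dashed line, is dark apart from 4 rows, while the other 5 columns share the same gradient.

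The summed TPM of the assembled loci made up 0.220%, 0.172% and 0.264% of all TPM in the 3 core samples, against 0.157% and 0.189% in the margin. The mean sum was 2188 ± 460.2 TPM in TC (SD, n = 3) and 1732 ± 223 TPM in TM (SD, n = 2), and the groups overlapped (exact permutation test, two-sided p = 0.4). A large part of each sum came from MSTRG.27158 and MSTRG.27140. MSTRG.27158 was at 996, 599.7 and 1277 TPM in TC and at 545 and 709 TPM in TM, so that TC replicate 2 lay between the margin samples. MSTRG.27140 was at 361, 281 and 494 TPM in TC and at 162 and 211 TPM in TM, with every core sample above both margin samples. The former exceeded the latter 2.76, 2.14 and 2.59 times in core tissue and 3.37 and 3.35 times at the margin. Together they held 59.9% ± 8.10 of the sum in TC (SD, n = 3), against 46.8% ± 2.69 at the margin (SD, n = 2), with p = 0.2 by the exact permutation test. Without them the order of the zones turned, to 852 ± 17.2 TPM in TC and 918 ± 72.1 TPM in TM (exact permutation p = 0.4).

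StringTie numbers its loci in the order in which it meets them along the reference, and the identifiers ran from 1 to 27914. When the numbers were divided into steps of 100, the step from 27100 to 27199 held 32 of the 259 loci, and no other step held more than 5. All 32 were above 0 in at least 1 of the 5 samples, and 7 of the 20 loci with the highest means were among them, including MSTRG.27158 and MSTRG.27140. These 32 loci summed to 1486, 1017 and 1941 TPM in TC and to 831 and 1134 TPM in TM. The other 227 loci summed to 713, 706 and 702 TPM in TC and to 743 and 755 TPM in TM, a far narrower range. The step was picked after the values had been seen, and which sequence of the genome it belongs to is not given by the files.

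**Figure D3:**
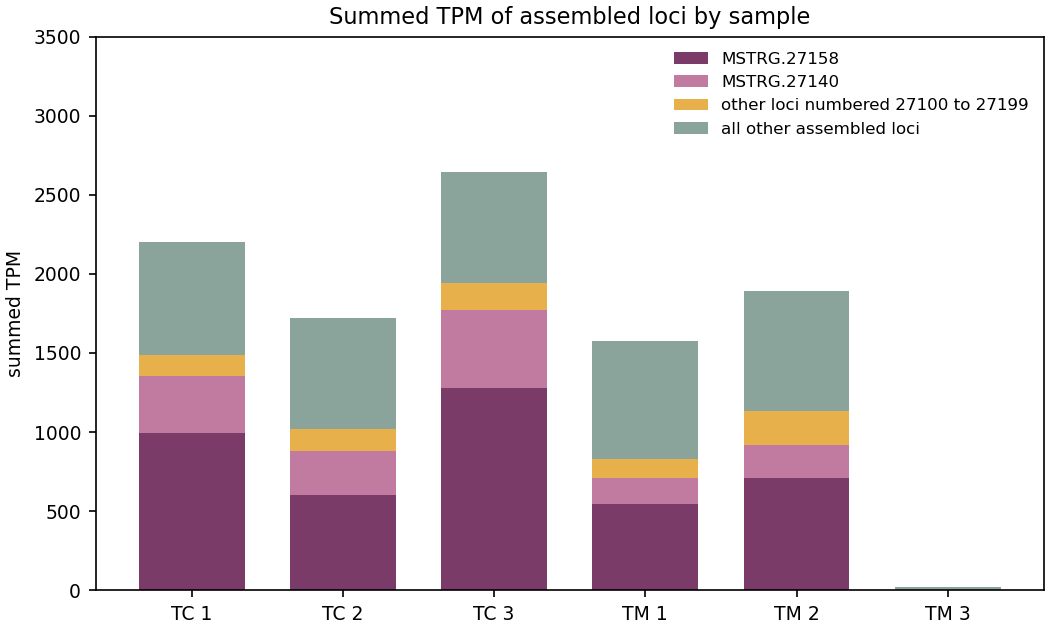
Summed TPM of the assembled loci in each sample, as stacked bars for MSTRG.27158, MSTRG.27140, the other 30 loci numbered 27100 to 27199 and all remaining loci. The remaining loci stay between 702 and 755 TPM in 5 samples, the bars differ in height through MSTRG.27158 and MSTRG.27140, and TM replicate 3 is close to 0.

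Zone differences were sought with limma, TC against TM replicates 1 and 2. This is a linear model with variance shared across entries, fitted here to log2(TPM + 1) of the 14532 entries that reached 1 TPM in 2 or more of the 5 libraries. Of the assembled loci 197 passed this filter. Of the 62 that did not, 12 were at 0 throughout and 50 were above 0 in at least 1 sample. A locus that passed only through the zone where it is high had to differ, so the counts below describe the loci tested and not all 259. At an adjusted p under 0.05 a single assembled locus was called, higher in TC, against 0.186% of all entries tested and 0.0206% called higher in TC. At an unadjusted p under 0.05 there were 39 loci (19.8%, against 19.3% of all entries). Of these, 10 were higher in TC (2.41% of all entries were) and 29 were lower (16.9% of all entries were). The core and margin values did not overlap in 55 tested loci (27.9%, against 37.1% of all entries), 15 higher in TC (5.95% of all entries) and 40 lower (31.1% of all entries).

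The lean toward lower values in TC was shared by the whole matrix and moved with the way the libraries were scaled. The median log2 difference (TC minus TM) was -0.16 over the tested loci and -0.19 over all entries tested. After median-of-ratios rescaling it was 0.0035 over the loci and 0.028 over all entries, and after quantile normalization 0.080 and 0.016. The split of the loci at an unadjusted p under 0.05 changed from 10 higher and 29 lower to 17 higher and 23 lower after median-of-ratios rescaling, and to 19 higher and 20 lower after quantile normalization. These were 40 of 199 and 39 of 197 tested loci. The share of all entries fell from 19.3% to 14.2% and 15.2% in the same order, so the near equality of the shares did not hold after rescaling. Loci that do not overlap between the zones changed from 15 higher and 40 lower to 31 higher and 32 lower and to 32 higher and 32 lower, in the same order. These were 63 of 199 and 64 of 197 tested loci, against 32.5% and 34.2% of all entries.

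**Figure D4:**
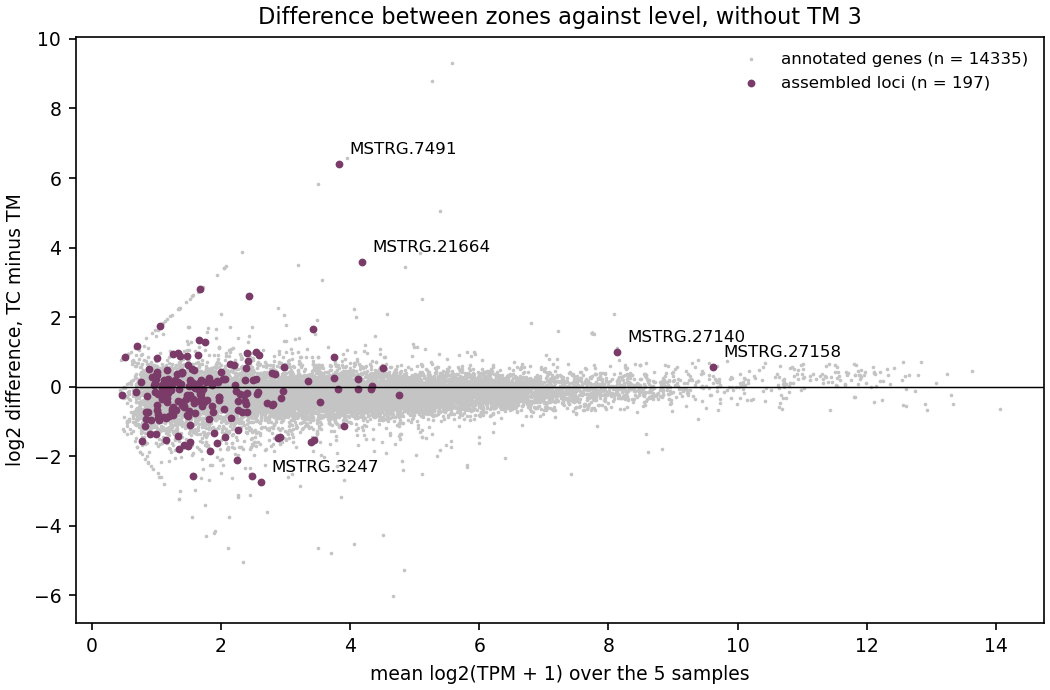
Log2 difference between core and margin (vertical axis, TC minus TM without TM replicate 3) against the mean log2(TPM + 1) of the 5 samples (horizontal axis), for 197 assembled loci (purple) over the annotated genes tested (grey). Most loci lie at the low end and within the grey cloud, and MSTRG.7491 lies above it at 6.39.

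The locus called was MSTRG.7491. Its core values were 70.2, 128 and 63.3 TPM, and it was at 0 in TM replicates 1 and 2. It was also listed at 0 in TM replicate 3, where a 0 is not read as absence. No core sample came near the margin values, and no fold is given against 0. On the log2(TPM + 1) scale the difference was 6.39 (SE 0.31, limma adjusted p = 3.00e-04), and its size depends on the pseudocount. MSTRG.7491 passed the filter through its core values alone, so it had to differ. Its margin values of 0 added no spread to the SE, so the p-value rests on the core samples and the shared variance. Without a filter on low values, which raised the number of entries tested to 28595, it was no longer called (limma adjusted p = 0.0794). The number of assembled loci called was then 0. In that fit 39 of 247 tested loci had an unadjusted p under 0.05, against 14.2% of all entries.

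In addition, 3 loci were above 0 in every core sample and at 0 in both margin samples, and the reverse pattern was seen in 0 loci. MSTRG.3669 was at 2.99, 5.10 and 12.7 TPM in TC (log2 difference 2.79, SE 0.49, limma adjusted p = 0.0816), and it was called with a pseudocount of 0.1 (adjusted p = 0.0474) and with robust moderation (adjusted p = 0.0477). MSTRG.3088 was at 2.05, 1.78 and 3.49 TPM in TC (log2 difference 1.75, SE 0.31, limma adjusted p = 0.0823). Like MSTRG.7491, MSTRG.3669 and MSTRG.3088 passed the filter through their core values alone, with no spread at the margin. MSTRG.16069, at 0.70, 0.56 and 0.36 TPM in TC, was too low to be tested. At levels this low a value of 0 in 2 samples says little, as the read depth behind it is unknown.

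The other large differences toward the core came from loci with a single margin sample above 0. MSTRG.21664, the locus with the fourth highest mean, was at 56.4, 44.2 and 43.9 TPM in TC and at 15.7 and 0 TPM in TM. Every core sample lay above both margin samples, but the margin values were far apart, and the log2 difference of 3.58 (SE 0.97) was not called (limma adjusted p = 0.124). Without TM replicate 1 it was called (adjusted p = 7.14e-05), but the margin was then the 1 sample at 0. In every fit that leaves out a margin sample, the lone margin sample is assumed to vary like the core samples. MSTRG.27125 was at 9.79, 13.3 and 7.93 TPM in TC and at 0 and 2.32 TPM in TM (log2 difference 2.61, SE 0.50, limma adjusted p = 0.0838), and it was called without TM replicate 2 (adjusted p = 0.0148), when the margin was again 1 sample at 0.

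By limma 0 loci were called lower in TC, and 29 had an unadjusted p under 0.05 in that direction. The 5 largest differences among loci without overlap were as follows. MSTRG.3247 was at 2.63, 0 and 5.58 TPM in TC and at 17.3 and 19.5 TPM in TM (log2 difference -2.75, SE 0.69, limma adjusted p = 0.113). MSTRG.15332 was at 5.42, 2.26 and 0 TPM in TC and at 16.9 and 13.8 TPM in TM (log2 difference -2.56, SE 0.68, limma adjusted p = 0.121). In both loci the margin samples lay close together and 1 core sample was at 0. MSTRG.3762 was lower still, at 0, 0.85 and 1.02 TPM in TC and at 2.51 and 7.39 TPM in TM (log2 difference -1.81, SE 0.47, limma adjusted p = 0.118).

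The remaining pair, MSTRG.27171 and MSTRG.27172, carries consecutive numbers in the crowded step described above. MSTRG.27171 was at 1.19, 0.15 and 0.25 TPM in TC and at 6.56 and 8.85 TPM in TM, the smallest adjusted p among loci that were not called (log2 difference -2.56, SE 0.36, limma adjusted p = 0.0558). It was called with robust moderation (adjusted p = 0.0212). MSTRG.27172 was at 2.24, 1.40 and 1.39 TPM in TC and at 5.87 and 17.7 TPM in TM (log2 difference -2.10, SE 0.43, limma adjusted p = 0.0891), and it was called without TM replicate 1 (adjusted p = 0.0380), when the margin was the 1 sample with the higher value. The next numbers, chosen after their values were seen, leaned the same way. MSTRG.27173 was at 1.04, 0.26 and 0.18 TPM in TC and at 1.32 and 2.38 TPM in TM, and MSTRG.27174 was at 6.32, 4.36 and 8.21 TPM in TC and at 17.2 and 22.1 TPM in TM (log2 difference -1.53, SE 0.28, limma adjusted p = 0.0838). The numbers on either side showed small differences, with -0.063 for MSTRG.27169 and 0.037 for MSTRG.27175 on the log2 scale. MSTRG.27170 was at 26.9, 14.7 and 13.3 TPM in TC and at 13.7 and 16.3 TPM in TM (log2 difference 0.21, SE 0.30). Over all pairs of tested loci with consecutive numbers, 13 of 23 differed between the zones in the same direction.

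TM replicates 1 and 2 differed from TC in markers of host tissue too. The summed muscle markers were 2.69 times as high in TM replicate 2 as in TM replicate 1, and the fibroblast markers 2.05 times. Among the 40 loci that were lower in TC without overlap, 20 were higher in TM replicate 2 than in TM replicate 1, and 3 were more than 2 times as high. The same counts were not taken over all entries, so they are not read as a trait of the loci. For loci at 0 in TM replicate 3, that sample, which is low in these markers, gives no comparison, and the part of host RNA in the differences of the loci was not tested. In bulk tissue, more cells of a type and more RNA per cell cannot be told apart.

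**Figure D5:**
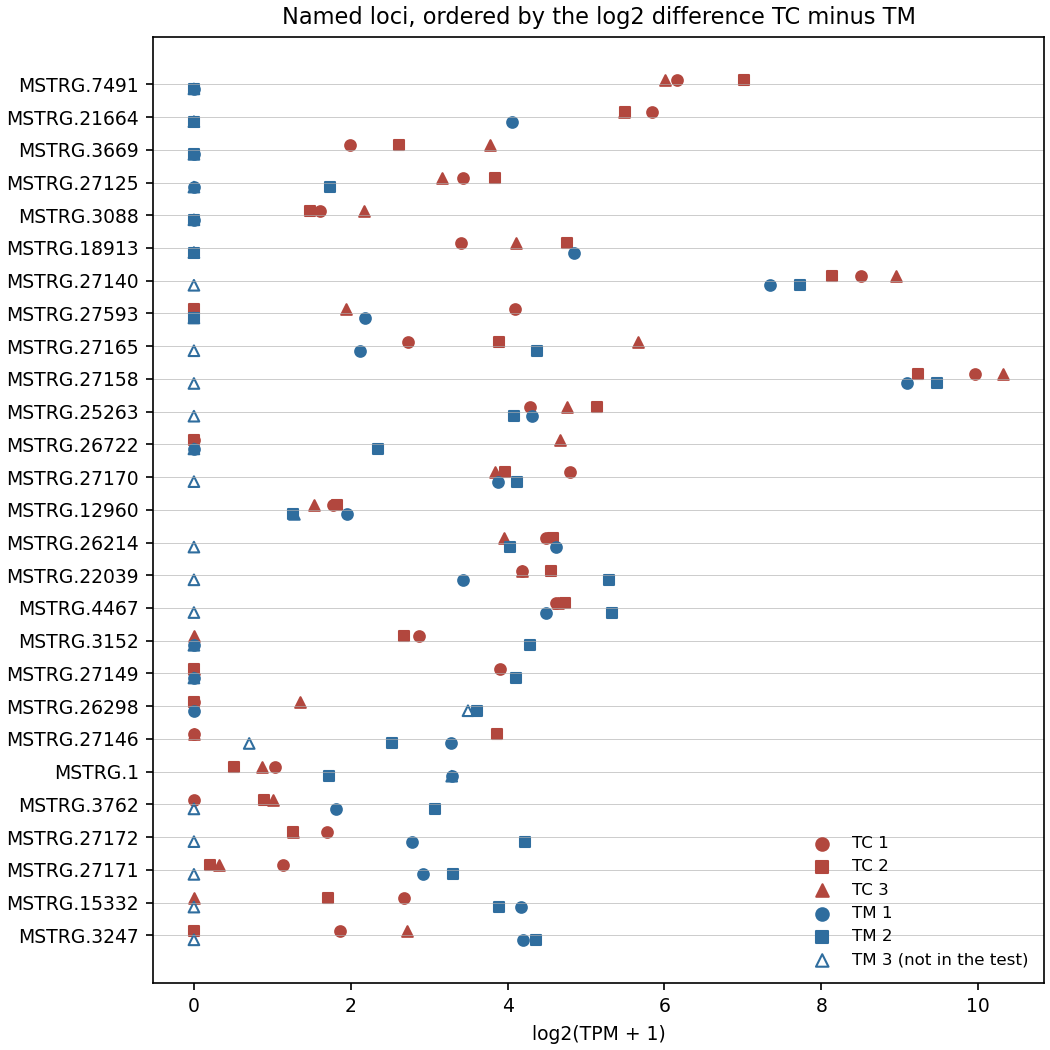
Values of the 27 named and tested loci as log2(TPM + 1), ordered by the log2 difference from the most negative at the bottom to the most positive at the top, with core samples in red, margin samples in blue and TM replicate 3, which was not in the test, as open triangles. The core symbols lie right of the margin symbols in the top rows, such as MSTRG.7491, left of them in the bottom rows, and mixed in between.

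Among the 10 loci with the highest means, apart from MSTRG.7491 and MSTRG.21664, 0 were called by limma, and MSTRG.27140 alone had an unadjusted p under 0.05 and no overlap between the zones. MSTRG.4467 was at 23.5, 25.6 and 24.0 TPM in TC and at 21.5 and 39.1 TPM in TM (log2 difference -0.25, SE 0.25). MSTRG.26214 was at 21.4, 22.8 and 14.6 TPM in TC and at 23.4 and 15.4 TPM in TM (log2 difference 0.016, SE 0.26). MSTRG.25263 was at 18.5, 34.2 and 26.1 TPM in TC and at 18.9 and 16.0 TPM in TM, with overlap (log2 difference 0.53, SE 0.26). MSTRG.22039 ranged from 17.1 to 22.5 TPM in TC, whereas its margin values were 9.81 and 38.2 TPM (log2 difference -0.058, SE 0.48), and its sign turned under either rescaling. MSTRG.27165 varied most among these 10 apart from MSTRG.21664, at 5.63, 13.8 and 49.8 TPM in TC and at 3.34 and 19.7 TPM in TM (log2 difference 0.85, SE 0.89). For MSTRG.27158 the log2 difference was 0.56 (SE 0.29, limma adjusted p = 0.354), and for MSTRG.27140 it was 0.99 (SE 0.24, limma unadjusted p = 0.00333, adjusted p = 0.108).

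The loci varied widely between replicates. The within-group SD of log2(TPM + 1) had a median of 0.46 over the 197 tested loci, with quartiles of 0.31 and 0.74, against 0.25 over all entries tested. Among annotated classes the median was 0.23 for 12080 protein-coding genes, 0.34 for 1367 long non-coding RNAs, 0.42 for 684 pseudogenes and 1.53 for 119 entries of the remaining classes, so that pseudogenes came close to the loci and the remaining classes exceeded them. The gap to annotated genes as a whole was also present at matched levels. Among entries with a mean of 2 to 5 TPM the median SD was 0.49 for 81 loci and 0.34 for 2429 annotated genes, and among those of 5 to 20 TPM it was 0.48 for 35 loci and 0.27 for 4614 annotated genes. The steadiest locus was MSTRG.16994, with a within-group SD of 0.099. The largest SDs belonged to loci that were high in some replicates and at 0 in others. MSTRG.27149 (SD 2.49) was at 13.9, 0 and 0 TPM in TC and at 0 and 16.3 TPM in TM. MSTRG.26722 (SD 2.40) was at 0, 0 and 24.4 TPM in TC and at 0 and 4.08 TPM in TM. MSTRG.3152 (SD 2.19) was at 6.33, 5.42 and 0 TPM in TC and at 0 and 18.5 TPM in TM. MSTRG.18913 (SD 2.05) was at 9.63, 25.98 and 16.3 TPM in TC and at 27.7 and 0 TPM in TM, and it was called higher in TC without TM replicate 1 (limma adjusted p = 0.0172), when the margin was 1 sample at 0, while without TM replicate 2 the log2 difference turned to -0.75. Last, MSTRG.27593 (SD 1.89) was at 16.1, 0 and 2.85 TPM in TC and at 3.53 and 0 TPM in TM. In each of these 5 loci the zones overlapped.

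Agreement between samples was accordingly lower over the loci than over annotated genes. Pearson correlation of log2(TPM + 1) across the 197 tested loci was 0.717 to 0.751 between core samples (3 pairs), 0.579 between TM replicates 1 and 2 and 0.451 to 0.646 between a core and a margin sample (6 pairs). Across the annotated genes tested it was 0.961 to 0.970, 0.962 and 0.940 to 0.961, respectively. These are correlations across loci of the same libraries, which are not independent replicates and span a narrower range of levels than the genes do.

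For comparison, 17 long non-coding RNAs of the annotation were examined, and 16 of the 18 entries that carry their symbols were tested. At an unadjusted p under 0.05 there were 4 higher and 5 lower in TC, and 1 was called. This was MALAT1, a nuclear RNA of speckles, at 7.54, 5.90 and 4.21 TPM in TC and at 23.8 and 27.4 TPM in TM (log2 difference -1.97, SE 0.26, limma adjusted p = 0.0459). In TM replicate 3, outside the test, it was at 89.7 TPM. Over all annotated long non-coding RNAs tested the median log2 difference was -0.16 and 18.5% had an unadjusted p under 0.05, close to the -0.16 and 19.8% of the assembled loci.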

How the data were processed

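RNA-seq was performed on 3 TC and 3 TM samples. The authors deposited one matrix of TPM per gene, made from TruSeq libraries with paired reads. Per the study's methods and the submitters' processing notes, the reads were trimmed, aligned to hg38 with HISAT2, assembled by StringTie with a reference and quantified with RSEM. Versions and the annotation release are not given in the sources used here. Depth is unknown, so no interval from read counts is given. Column names were matched to sample titles, and the number of other value columns was 0.

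Assembled loci were the entries whose identifier begins with MSTRG. These and the gene lists were chosen with earlier results of these data known. Gene classes came from GENCODE v29, which held 58453 of the 60671 annotated genes. The 5 samples without TM replicate 3 were compared by limma 3.58.1 in R 4.3.3 on log2(TPM + 1), with a mean-variance trend, no covariate, two-sided, adjusted by the Benjamini-Hochberg method over 14532 entries. The study's DESeq2 needs counts and was not run. Sums and counts per sample were compared by exact permutation tests. The labels do not say that replicates came from separate animals (the paper gives 3 mice per group), so p-values measure the spread between these samples.

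Loci named are the 10 highest means, those called, the 5 largest differences in each direction without overlap, those above 0 in TM replicate 3, those above 0 in all TC and at 0 in both TM samples or the reverse, and the 5 largest within-group SDs. Alternatives were quantile normalization, median-of-ratios rescaling, TPM without mitochondrially encoded genes, a pseudocount of 0.1, no filter, a mean of at least 5 TPM, TM replicate 3 included, the replicate number as a block, 2 other moderations, other detection thresholds, sums without the 5 highest loci, and leaving out each sample. Sums without the 2 highest loci were added with the values in view. The fit was tested on simulated data.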

Additional observations from a re-analysis of the deposited data

Results flagged for a closer look

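TM replicate 3 was outside the main comparisons, and 4 assembled loci nevertheless had signal there. MSTRG.26298 was at 10.27 TPM in TM replicate 3, against 0, 0 and 1.56 TPM in TC and 0 and 11.2 TPM in TM replicates 1 and 2. MSTRG.1 was at 8.76 TPM, against 1.05, 0.42 and 0.82 TPM in TC and 8.78 and 2.30 TPM in TM, so that all 3 margin samples lay above the core samples. MSTRG.12960 was at 1.43 TPM, against 2.41, 2.55 and 1.88 TPM in TC and 2.86 and 1.39 TPM in TM. MSTRG.27146 was at 0.63 TPM, against 0, 13.6 and 0 TPM in TC and 8.68 and 4.77 TPM in TM. It was called lower in TC without TC replicate 2 (limma adjusted p = 0.0478), its only core sample above 0. The locus then passed the filter through its margin values alone, with no spread in the core, so it had to differ.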

How the results depend on the processing

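TPM holds no depth, 2 margin samples give little hold on the spread, and the exact tests could not pass 0.05. Called loci, with all entries called in parentheses, numbered 2 (21) with a pseudocount of 0.1, 3 (96) with robust moderation and 0 (1) without a filter, against 1 (27), and 1 to 4 (11 to 44) when a sample was left out (4 without TM replicate 1, namely MSTRG.7491, MSTRG.18913, MSTRG.21664 and MSTRG.27172). MSTRG.7491 was called in all but the fit without a filter. MSTRG.27146 was called without TC replicate 2, when the core samples left were at 0. Loci at an unadjusted p under 0.05 numbered 34 to 44 when a TC sample was left out, against 13.5% to 20.2% of all entries. These were out of 188 or 189 tested loci. There were 13 of 42 tested loci with a mean of at least 5 TPM (21.6% of all entries) and 17 of 197 with TM replicate 3 included (16.0% of all entries). These 17 were 16 higher and 1 lower in TC. Only 4 loci were above 0 in TM replicate 3, so this split is not read as a zone difference. Loci without overlap numbered 14 of the 42 with a mean of at least 5 TPM (39.8% of all entries). With TM replicate 3 included they numbered 16 of 197 (21.9% of all entries). This count is likewise not read as a zone difference. Loci without overlap numbered 73 to 98 when a sample was left out, with 98 without TM replicate 1 and 98 without TM replicate 2. The share of all entries without overlap rose too, from 37.1% to between 44.8% and 61.4% (56.3% without TM replicate 1, 61.4% without TM replicate 2), so the rise says nothing about the loci.

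The median log2 difference was 0.080 (quantile), 0.0035 (median-of-ratios), -0.20 (pseudocount of 0.1), -0.068 (mean of at least 5 TPM), 0.42 (TM replicate 3 included) and -0.11 (replicate block), and -0.17 to -0.10 when a sample was left out. The difference in summed TPM was -188 without the 5 highest loci and -66.1 without the 2 highest, against 457, and 797 after median-of-ratios rescaling, 1027 with TM replicate 3 included and 230 to 690 when a sample was left out. The difference in the number of loci was -19.5 at a threshold of 1 TPM, against 3.67 above 0, and 0.67 to 6.67 when a sample was left out.

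The labels share replicate numbers but do not say that they mark pairs. With 2 margin samples their deviations from the mean mirror each other, so correlations of deviations cannot decide this, and the numbers are not taken as pairs. With the replicate block 1 of 197 tested loci was called, against 22 of all entries. At an unadjusted p under 0.05 there were 45 loci, against 19.6% of all entries. Of the 27 named and tested loci 17 never changed sign. The others did so at small differences or where 1 sample decided the value, and the cause was not tested. With a sample left out, the values ran from -0.66 to 0.17 for MSTRG.4467, -0.99 to 0.87 for MSTRG.22039, -0.27 to 0.30 for MSTRG.26214, -0.28 to 1.98 for MSTRG.27165, -0.088 to 0.39 for MSTRG.27170, -0.24 to 0.45 for MSTRG.12960, -0.79 to 1.16 for MSTRG.26722, -2.43 to 1.85 for MSTRG.3152, -0.75 to 4.09 for MSTRG.18913 and -0.17 to 2.01 for MSTRG.27593. Under the other settings MSTRG.22039 changed to 0.19 (quantile), 0.18 (median-of-ratios), 1.40 (TM replicate 3 included) and 0.0055 (block). MSTRG.4467 changed to 1.39 with TM replicate 3, and MSTRG.26214 to -0.026 without mitochondrially encoded genes. MSTRG.26722 changed to -0.047 (pseudocount) and -1.17 (block), and MSTRG.3152 to 0.16 (pseudocount), 0.42 (TM replicate 3 included) and 0.64 (block).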

Other observations

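The pattern of MSTRG.7491 was looked for among annotated genes after its values were seen. Of 60671 annotated genes, 2 were at 10 TPM or more in every core sample and at 0 in TM replicates 1 and 2, both copies of the 5S ribosomal RNA gene. RNA5S12 was at 475, 521 and 1001 TPM in TC and at 139 TPM in TM replicate 3, and RNA5S11 was at 855, 343 and 294 TPM in TC and at 0 in TM replicate 3. The 5S copies hardly differ in sequence, and values per copy are uncertain. Over annotated genes of any level, 105 were above 0 in every core sample and at 0 in both margin samples and 482 showed the reverse, against 4 and 0 of the assembled loci.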
